A study of Mus musculus with 10 samples.

Results

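The genes described are the solute carriers, taken as every gene of the deposited table whose symbol begins with Slc and a family number. The rule found 214 of 12803 genes, in 44 families, and 212 of the 371 protein-coding genes with such symbols in the GENCODE M21 annotation. The rule uses the symbol and no measured value, but it was set with earlier results of these data known. In 5 cases (Slc7a6os, Slc4a1ap, Slc9a3r1, Slc9a3r2 and Slc2a4rg-ps) the symbol was given for a neighbour, a binding partner or a pseudogene, and these genes do not encode carriers. Families were grouped by their number into 9 classes of cargo, and 28 members had a mean below 1 RPKM (reads per kilobase of exon and unit of library size) in each group.

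The cells were muscle stem cells of young male C57BL/6 mice, sorted from limb muscle as CD45-, CD31-, Sca1- and VCAM+ cells, and each library came from the cells of 1 animal. Fresh cells were taken at 0 h (n = 3). Vehicle cells were cultured for 24 h in Ham's F-10 medium with 10% horse serum on plates coated with ECM, with DMSO (n = 3), and the treated cells were cultured for 24 h in the same way with 40 µM Tubastatin A (n = 4), an inhibitor of the cytoplasmic deacetylase HDAC6. The study's title poses the question as the keeping of stem cell quiescence by the compound. Culture and time are the same step in the comparison of vehicle with fresh cells and cannot be told apart there.

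Solute carriers are membrane proteins that move sugars, amino acids, ions, metals, nucleotides and other small molecules across the plasma membrane and the membranes of organelles, either along a gradient or coupled to a second ion. Most bring nutrients into the cell or work in mitochondria, lysosomes and the Golgi apparatus. Quiescent muscle stem cells are small and have few mitochondria, and their activation comes with growth and a larger demand for glucose, amino acids and building blocks of nucleic acids.

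Depth was 37.5 M to 55.3 M reads in the table per library (M, mega), and 1 read in a gene of 1 kb was worth 0.016 to 0.0339 RPKM. The authors' RPKM are relative to scaled library sizes: reads in the table over scaled size were 1.39 to 1.41 in fresh and 0.83 to 0.93 in cultured libraries. If each library is scaled to its reads in the table instead, the median log2 change of all genes moves by 0.37 for vehicle against fresh, by 0.04 for Tubastatin A against vehicle and by 0.44 for Tubastatin A against fresh. Directions of whole classes against fresh cells are therefore given under both scalings. Markers of other cell types moved in the same comparisons: summed levels of 9 endothelial markers were 45.2 to 54.7 RPKM in fresh, 3.31 to 4.51 in vehicle and 6.13 to 6.97 in Tubastatin A libraries, and those of 8 fibro-adipogenic markers 1797 to 2238, 69.7 to 84.8 and 87.6 to 120.1 RPKM. Of the 7 immune markers 3 were measured, at sums of 10.2 to 21.6, 0.731 to 0.946 and 2.53 to 4.03 RPKM. The 6 pericyte and smooth muscle markers summed to 237.2 to 289.6, 176.7 to 241.0 and 12 to 63.2 RPKM, and 4 of 5 Schwann markers to 238.6 to 294.3, 61.2 to 77.7 and 23.4 to 27.3 RPKM. The 7 myofibre markers summed to 47.3 to 57, 15.5 to 23.8 and 3.83 to 331.1 RPKM, the last value being that of Tubastatin A replicate 2. Of 5 erythroid markers only Hba-a1 was measured, and Hba-a1, Lyz2, Lum, Myh11 and Mb were each listed at their lowest value (no reads) in at least 1 library. Single genes held much of these sums in fresh cells, where the means of Gsn and Col3a1 were 1362 and 407 RPKM. Those of Pmp22, Acta2 and Tek were 259, 212 and 18 RPKM. The fibro-adipogenic marker Pdgfra was at only 0.00676 to 0.218 RPKM in fresh libraries and did not pass in any comparison. The part of other cell types in the changes of carriers was not tested, and in bulk RNA fewer cells of a type and less RNA per cell cannot be told apart. All 8 muscle stem cell markers were measured, with sums of 1979 to 2451, 1372 to 1556 and 645.2 to 685.1 RPKM. Myod1 held much of each sum, with means of 757, 1186 and 539 RPKM, while those of Chodl were 602, 2.39 and 4.49. In vehicle culture 6 of the 8 fell, where 35% of all genes fell, and none rose. With Tubastatin A against vehicle 6 fell and 2, Calcr and Chodl, rose, where 29.7% and 29.6% of all genes did.

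Carrier transcripts made up 1.09% to 1.35% of all RPKM in every library, but their make-up differed between the groups. Mitochondrial carriers held 24.7% to 33.1% of carrier RPKM in fresh libraries, 47.2% to 47.9% in vehicle and 31.1% to 32.9% in Tubastatin A libraries. Amino acid and peptide carriers held 23.1% to 28.5%, 13.3% to 13.8% and 18.3% to 20.6%. Slc43a3, which is counted in this class by its family but carries purine nucleobases, made up much of the fresh sum. Without it the class summed to 826 ± 142 RPKM in fresh (SD, n = 3), 452 ± 12.7 in vehicle (SD, n = 3) and 538 ± 60.1 in treated libraries (SD, n = 4). For carriers of monocarboxylates and organic ions the shares were 11.1% to 16.6%, 3.12% to 3.22% and 3.45% to 3.53%, so both cultured groups were far below fresh cells. For sugar carriers they were 2.65% to 3.49%, 2.01% to 2.16% and 4.77% to 4.95%. No library of the vehicle group overlapped with a fresh or a Tubastatin A library in the shares of sugars or amino acids, while the mitochondrial shares of fresh and Tubastatin A libraries overlapped. A few genes carried much of each sum: the 10 highest held 59.3% of carrier RPKM in fresh, 54.6% in vehicle and 41% in Tubastatin A cells. In fresh cells these began with the adenine nucleotide carrier Slc25a5, the steroid sulfate carrier Slc10a6 and Slc43a3, and in both cultured groups Slc25a5 came first as well.

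**Figure D1:**
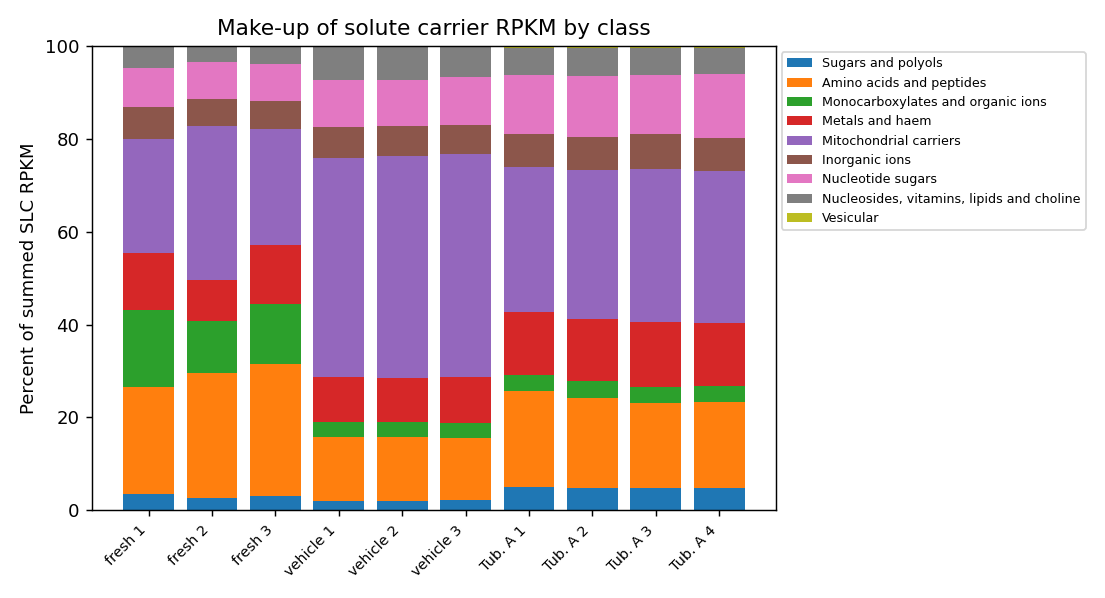
Percent of the summed RPKM of the 214 solute carrier genes by class, 1 bar per library. Mitochondrial carriers make up the largest share in the 3 vehicle libraries (47.2% to 47.9%), and carriers of monocarboxylates and organic ions are at 3.12% to 3.53% in all 7 cultured libraries.

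Against fresh cells, 56 carrier genes (26.2%) were higher in vehicle culture and 85 (39.7%) lower at an adjusted p under 0.05, where 32% of all genes tested were higher and 35% lower. The median log2 change, a difference of log2(RPKM + 1), was -0.10 for carriers and -0.03 for all genes. Scaled to reads in the table, 88 carriers were higher and 51 lower, with 49.7% and 22.7% of all genes, so the direction of the balance depends on the scaling. Tubastatin A against vehicle gave 91 higher (42.5%) and 48 lower (22.4%), where 29.6% of all genes were higher and 29.7% lower. The median there was 0.20 for carriers and 0.02 for all genes, and 105 were higher and 43 lower with reads in the table. Of changes of at least 1 log2 unit in that comparison, 41 carriers (19.2%) were higher and 12 (5.61%) lower, against 8.54% and 10.2% of all genes. Against fresh cells, Tubastatin A gave 84 higher (39.3%) and 65 lower (30.4%), where the background was 29.8% and 35.2%, and 132 and 35 with reads in the table. The 3 comparisons share libraries, so their values are only set side by side.

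**Figure D2:**
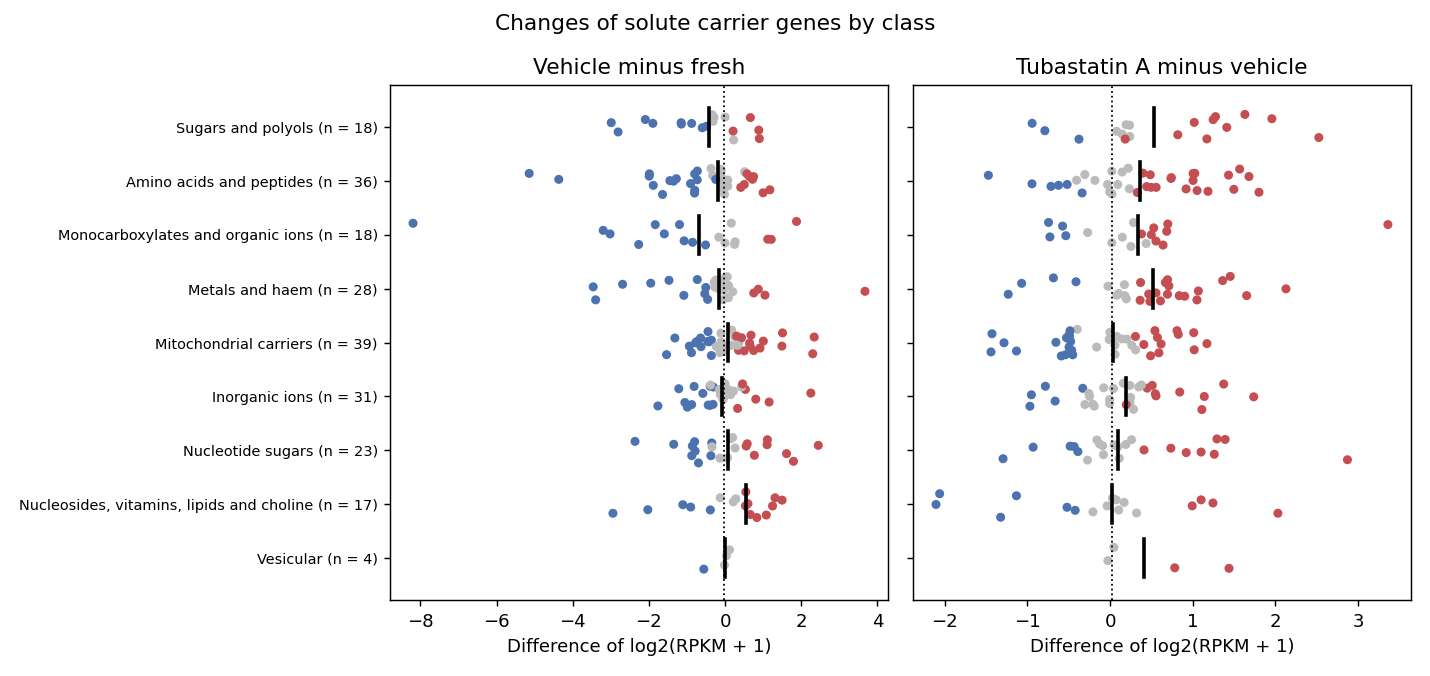
Difference of log2(RPKM + 1) of each carrier gene by class, vehicle minus fresh on the left and Tubastatin A minus vehicle on the right. Red and blue points were higher and lower at an adjusted p under 0.05, grey points did not pass, black bars are class medians and the dotted line is the median of all genes. In the right panel 18 of 28 metal and haem carriers and 10 of the 18 members of the sugar and polyol class are red, where 29.6% of all genes were higher. In the left panel the balance of higher and lower calls turns for amino acids, metals, inorganic ions and nucleotide sugars when libraries are scaled to reads in the table.

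Glucose enters most cells through the Slc2 family of facilitative transporters. Of the 18 members of the sugar and polyol class, 4 were higher and 9 lower in vehicle than in fresh cells (5 and 9 with reads in the table). Of all genes 32% were higher and 35% lower there (49.7% and 22.7% with reads in the table). With Tubastatin A 10 members were higher and 3 lower than with vehicle, where 29.6% and 29.7% of all genes were. By family number the class also counts Slc5a6, a vitamin carrier, among those higher in vehicle and those lower with the compound. Within the 10 symbols of family 2, of which Slc2a4rg-ps is no transporter, 1 rose and 8 fell in vehicle culture (2 and 8 with reads in the table). With Tubastatin A 6 rose, and no estimate of the family was below 0, the lowest being 0.08. The summed level of the family was 92.8 ± 8.32 RPKM (SD, n = 3) in fresh, 25.2 ± 0.708 (n = 3) in vehicle and 86.9 ± 8.03 (n = 4) in treated cells.

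Slc2a1, which encodes the basal glucose transporter GLUT1, stood at 20.8, 34.1 and 42.5 RPKM in the 3 fresh libraries, at 14.3, 12.3 and 13.9 in vehicle and at 46.3, 44.5, 38 and 47.4 with Tubastatin A. All 4 treated libraries were above all 3 vehicle libraries, and the vehicle libraries were below all fresh ones. In vehicle culture it fell by 1.15 (SE 0.21, adjusted p = 0.00035), and with Tubastatin A it rose by 1.63 (SE 0.19, adjusted p = 1.9e-05), 3.26 times the vehicle mean. Treated against fresh, Slc2a1 rose by 0.48 (SE 0.19, adjusted p = 0.045), a call that was lost without fresh replicate 1 (0.20, adjusted p = 0.19) and without any vehicle library or Tubastatin A replicate 1, 2 or 4 (adjusted p = 0.059 to 0.099). It was also lost with the replicate number as a block (0.44, adjusted p = 0.11), with array quality weights (0.17, adjusted p = 0.26) and in a fit of these groups alone (adjusted p = 0.082). The neuronal type transporter gene Slc2a3 was at lower levels and likewise lowest in vehicle, with 14.6, 10.4 and 14 RPKM in fresh, 2.92, 1.96 and 1.97 in vehicle and 9.53, 7.34, 5.88 and 8.28 in treated libraries. On the authors' scaling Slc2a3 was highest in fresh cells and no group overlapped with another. With libraries scaled to equal sums of RPKM, treated against fresh did not pass for this gene (-0.03, adjusted p = 0.91). It fell by 2.09 (SE 0.19, adjusted p = 1.1e-06) in vehicle culture and rose by 1.41 (SE 0.17, adjusted p = 2.7e-05) with the compound.

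Slc2a8 encodes a transporter held on late endosomes and lysosomes. It measured 11.3, 10.2 and 9.99 RPKM in fresh, 4.79, 5.51 and 5.50 in vehicle and 24.8, 22.6, 21.1 and 24.9 in treated libraries. The treated libraries stood above both other groups, and the gene rose by 1.96 (SE 0.10, adjusted p = 3.2e-08) against vehicle and rose by 1.08 (SE 0.10, adjusted p = 2.7e-06) against fresh cells. Slc2a10 and Slc2a12, which encode GLUT10 and GLUT12, stood between vehicle and fresh levels in treated cells: their means were 16.2 and 17.6 RPKM in fresh, 1.44 and 1.33 in vehicle and 4.87 and 3.11 in treated cells. Both were higher with the compound than with vehicle (1.28 and 0.82) and both remained lower than in fresh cells (-1.53 and -2.17). The insulin-responsive transporter gene Slc2a4 was low throughout, at 0.777 to 1.05 RPKM in fresh, 0.218 to 0.356 in vehicle and 0.309 to 0.667 in treated libraries. It fell by 0.60 (SE 0.11, adjusted p = 0.00039) in vehicle culture and did not pass the test (log2 change 0.24, SE 0.10, adjusted p = 0.063) between the cultured groups. Slc2a6, a lysosomal member, rested on 1, 1 and 2 reads in the fresh libraries, on 57, 84 and 127 reads in vehicle and on 445, 583, 296 and 281 reads with Tubastatin A.

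Slc45a3, a sugar carrier known from prostate, was near 0 in fresh (0.207, 0.580 and 0.452 RPKM) and vehicle cells (0.240, 0.0917 and 0.119) and reached 6.96, 5.05, 4.34 and 6.44 RPKM with Tubastatin A. The change on the log2 scale, 2.53 (SE 0.15), was the largest of the sugar carriers for Tubastatin A against vehicle. The gene may be in the table only through the treated libraries, so their separation from the other 6 is a description. Slc5a3, the sodium-coupled carrier of myo-inositol, fell by 1.89 (SE 0.29, adjusted p = 0.00011) in vehicle culture and did not pass the test (log2 change 0.15, SE 0.27, adjusted p = 0.67) with the compound. Slc37a3, a membrane carrier of the sugar phosphate exchanger family, measured 6.63 to 9.06 RPKM in fresh and 5.59 to 6.14 in vehicle and 12.7 to 16.9 in treated libraries, where it rose by 1.17 (SE 0.13, adjusted p = 1e-05) against vehicle. The sugar efflux carrier gene Slc50a1 went the other way and fell by 0.79 (SE 0.14, adjusted p = 0.00044), from 25.5 to 14.3 RPKM.

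**Figure D3:**
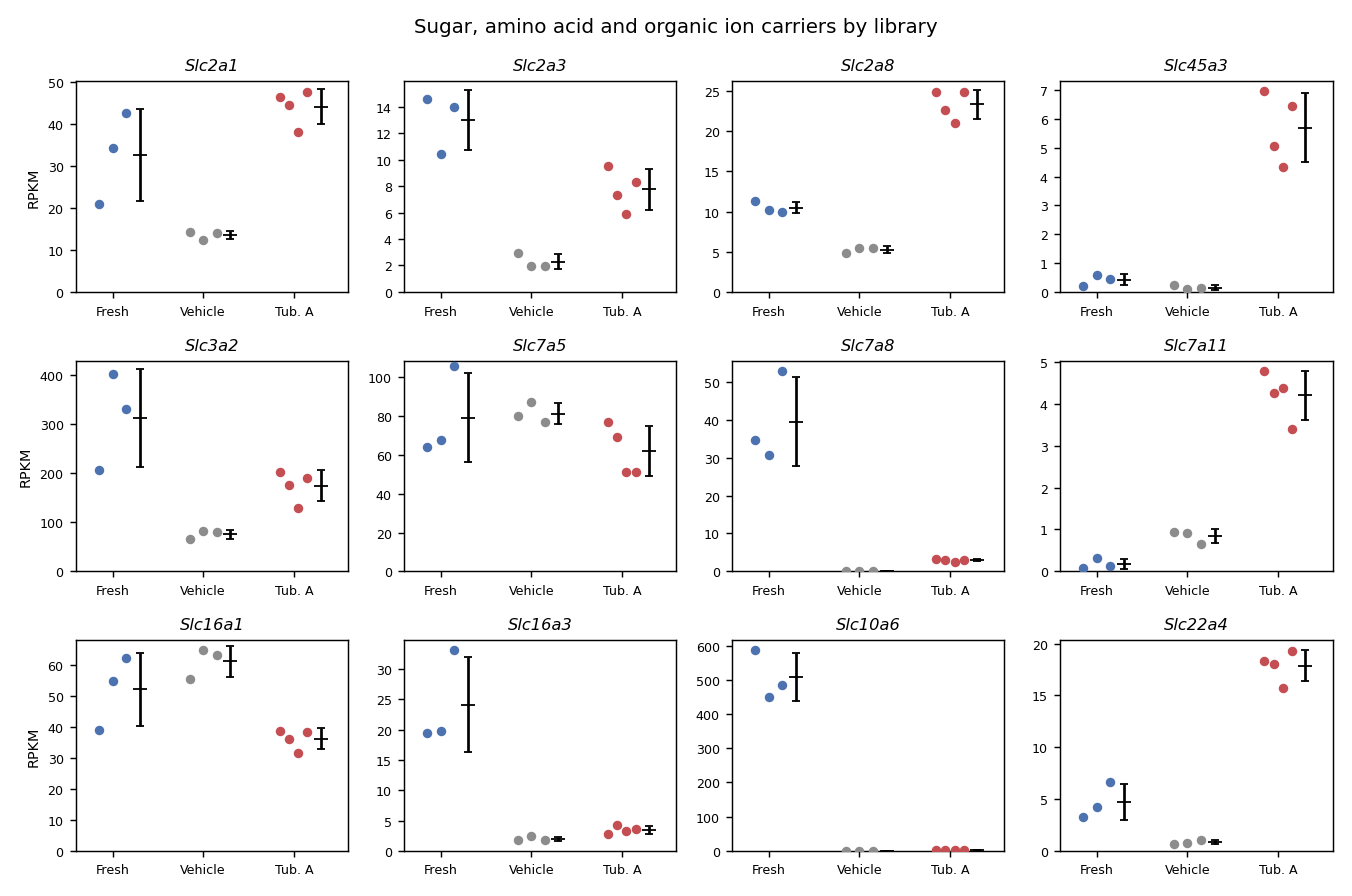
RPKM of 12 sugar, amino acid and organic ion carriers, 1 point per library, with the mean and SD (bars) of 3 fresh, 3 vehicle and 4 Tubastatin A libraries on linear axes from 0. Slc2a1, Slc2a3, Slc3a2 and Slc7a8 are lowest in vehicle, Slc45a3, Slc7a11 and Slc22a4 are highest with Tubastatin A, and Slc10a6 is at 0.609 to 1.82 RPKM in all 7 cultured libraries against 451 to 586 in fresh ones.

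Amino acid carriers formed a class of 36, of which 8 rose and 16 fell in vehicle culture (11 and 10 with reads in the table). Beside them, 32% of all genes rose and 35% fell (49.7% and 22.7% with reads in the table). With Tubastatin A against vehicle 19 amino acid carriers rose and 6 fell, at a median log2 change of 0.36, where 29.6% and 29.7% of all genes did. Their best known member is a pair of chains: Slc3a2 encodes the CD98 heavy chain, which carries light chains of the Slc7 family to the plasma membrane. Slc3a2 stood at 205, 401 and 329 RPKM in fresh, 65.3, 82.2 and 79.1 in vehicle and 202, 176, 129.7 and 190.3 in treated libraries. The vehicle libraries lay below all others, and the log2 change was -1.98 (SE 0.24, adjusted p = 1.5e-05) in vehicle culture and 1.18 (SE 0.22, adjusted p = 0.0007) with the compound.

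The light chains did not move as 1 block. Slc7a5, which encodes LAT1, the carrier of leucine and other large neutral amino acids, stood at 64.2, 67.9 and 106 RPKM in fresh, 79.8, 87.1 and 76.9 in vehicle and 76.8, 69.3, 51.2 and 51 in treated libraries. Fresh libraries overlapped with both cultured groups, while all treated libraries were below all vehicle ones, the closest pair being 76.8 and 76.9 RPKM. Neither vehicle against fresh (adjusted p = 0.78) nor Tubastatin A against vehicle (log2 change -0.40, adjusted p = 0.092) passed. Scaled to reads in the table, Slc7a5 was higher in vehicle than in fresh cells (0.67, adjusted p = 0.0092), and the contrast with the compound passed without fresh replicate 3 (-0.40, adjusted p = 0.043) or Tubastatin A replicate 1 (-0.51, adjusted p = 0.047). Slc7a8, the gene of the related carrier LAT2, lost nearly all its transcript, from 34.8, 30.8 and 52.9 RPKM in fresh to 0.125, 0.0653 and 0.160 in vehicle libraries, or from 6843, 4550 and 8220 reads to 30, 14 and 36 reads. With Tubastatin A it stood at 3.18, 2.95, 2.59 and 2.86 RPKM, above every vehicle and below every fresh library. Its change on the log2 scale, -5.14 (SE 0.17, adjusted p = 4.7e-10), in vehicle culture was the lowest of the class, and with the compound the gene rose by 1.80 (SE 0.16, adjusted p = 2.3e-06).

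Slc7a11 encodes xCT, the exchanger of cystine and glutamate on which glutathione synthesis draws. It rose stepwise, from 0.0840, 0.319 and 0.139 RPKM in fresh to 0.946, 0.920 and 0.647 in vehicle and 4.79, 4.25, 4.37 and 3.40 in treated libraries, with no overlap between groups. In vehicle culture it rose by 0.64 (SE 0.13, adjusted p = 0.00088), and with Tubastatin A it rose by 1.5 (SE 0.12, adjusted p = 9.5e-07), 5.01 times the vehicle mean. The ratio of Slc7a5 to Slc7a11 RPKM per library was 213 to 764 in fresh, 84.3 to 118.8 in vehicle and 11.7 to 16.3 in treated cells. Slc7a7, a light chain for export of basic amino acids, was chosen for its promoter after its values were seen: it stood at 2.87, 4.02 and 2.50 RPKM in fresh, 0.578, 0.683 and 0.538 in vehicle and 2.53, 1.98, 2.07 and 2.28 in treated libraries. Slc7a7 rose by 1.0 (SE 0.13, adjusted p = 4e-05) against vehicle. Slc7a6, its close relative, was likewise named for comparison, with means of 10.9 RPKM in fresh, 16 in vehicle and 13.9 in treated cells, and did not pass the test (log2 change -0.18, SE 0.14, adjusted p = 0.27) with the compound. The basic amino acid carrier gene Slc7a1 stood at 2.71 to 6.55 RPKM in fresh, 4.05 to 5.2 in vehicle and 3.43 to 4.90 in treated libraries, and no comparison passed. Slc7a4, an orphan of the same family, was at 0.597 to 0.921 and 0.215 to 0.527 RPKM in fresh and vehicle libraries and reached 4.50, 2.68, 2.73 and 4.08 RPKM with Tubastatin A, where it rose by 1.68 (SE 0.16, adjusted p = 2.9e-06).

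Carriers of small neutral amino acids split in the same comparison. Slc1a5, the glutamine carrier ASCT2, stood at 23.8, 52.7 and 38.5 RPKM in fresh, 86.3, 89.3 and 76.3 in vehicle and 56.3, 50.3, 42.7 and 54.4 in treated libraries. It rose by 1.18 (SE 0.23, adjusted p = 0.00063) in vehicle culture and fell by 0.71 (SE 0.21, adjusted p = 0.012) with the compound, where all treated libraries were below all vehicle ones. Its paralog Slc1a4 was lowest in vehicle, where Slc1a5 was highest, with 9.03, 11.1 and 12.6 RPKM in fresh, 4.20, 4.31 and 3.21 in vehicle and 16, 14.2, 8.91 and 10.8 in treated libraries. Slc1a4 fell by 1.28 (SE 0.20, adjusted p = 0.00013) in vehicle culture and rose by 1.43 (SE 0.19, adjusted p = 4.5e-05) with Tubastatin A, and treated and fresh libraries overlapped. Slc38a2, an amino acid starvation carrier of glutamine and alanine, dropped from 150.3, 126 and 219 to 53.1, 48.9 and 50.4 RPKM and stood at 56.9, 55.5, 50.4 and 54.4 RPKM in treated cells. Slc38a2 did not pass the test (log2 change 0.09, SE 0.16, adjusted p = 0.64) between the cultured groups. The ratio of Slc38a2 to Slc38a1 was 23.9 to 43.3 in fresh, 5.63 to 6.64 in vehicle and 7.35 to 9.20 in treated libraries.

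Slc6 carriers are coupled to sodium and chloride. Slc6a8, the creatine carrier on which muscle cells depend, stood at 2.27, 2.94 and 3.20 RPKM in fresh, 2.37, 2.44 and 3.14 in vehicle and 10.2, 9.13, 11.3 and 8.71 in treated libraries. Fresh and vehicle libraries overlapped, although the gene was higher in vehicle with reads in the table (0.37, adjusted p = 0.040), and all treated libraries were above the rest: against vehicle it rose by 1.57 (SE 0.14, adjusted p = 1.7e-06). The glycine carrier gene Slc6a9 rose by 1.0 (SE 0.25, adjusted p = 0.0046) against vehicle as well. The taurine carrier gene Slc6a6 measured 15.6 to 23.4 RPKM in fresh, 35.5 to 43.2 in vehicle and 30.6 to 32.8 in treated libraries, and it rose by 1.0 in vehicle culture. The change of Slc6a6 with the compound (-0.34, adjusted p = 0.047) no longer passed with reads in the table (adjusted p = 0.11), nor without fresh replicate 3 (adjusted p = 0.052), vehicle replicate 1 or 3 (adjusted p = 0.14 and 0.15) or any Tubastatin A library (adjusted p = 0.069 to 0.097). It was also lost with equal sums (adjusted p = 0.16), with voom on recovered reads (adjusted p = 0.0503) and with the replicate number as a block (-0.32, adjusted p = 0.11). Carriers of the Slc43 family fell in every comparison, 3 of 3 in each, except that 2 of 3 fell in vehicle culture with reads in the table. Slc43a1, which encodes LAT3 for branched-chain amino acids, had 26.4, 25.3 and 32.2 RPKM in fresh, 6.16, 6.06 and 6.54 in vehicle and 1.47, 1.76, 1.61 and 1.63 in treated libraries. Slc43a1 fell by 1.47 (SE 0.11, adjusted p = 5.8e-07) with the compound. The purine nucleobase carrier gene Slc43a3, at 348, 608 and 539 RPKM in fresh libraries, was among the highest carriers, and it stood at 23.2, 24.3 and 20.3 in vehicle and 17, 14.3, 12.3 and 14 in treated ones, after a change on the log2 scale of -4.37 (SE 0.19, adjusted p = 3.2e-09) in vehicle culture.

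Promoters of the carriers were searched for short motifs on both strands, from 250 bases before to 50 bases after the start of transcription in RefSeq (GRCm38.p6). Of the 214 symbols, 164 had a promoter there, 218 promoters in all. The amino acid response element TTGCATCA, a motif bound by ATF4 in amino acid shortage, lay in 5 promoters of 4 carrier genes (2.29%) and in 0.895% of all 32851 promoters. The 4 genes were Slc7a11, Slc1a4 and Slc7a7, which were higher with Tubastatin A than with vehicle, and Slc50a1, which was lower. The promoters are printed 5′ to 3′ on the gene's strand to show where the motif, in capitals, stands in each. Counted from the start of transcription, the motif's first base as printed was at -66 and -47 in Slc7a11 (chr3:50443564-50443863, minus strand), at -4 in Slc1a4 (chr11:20332664-20332963, minus strand), at -1 in Slc7a7 (chr14:54417895-54418194, minus strand) and at -189 in Slc50a1 (chr3:89270521-89270820, minus strand). A second promoter of Slc7a7 overlaps the one printed and holds the same site.
Slc7a11: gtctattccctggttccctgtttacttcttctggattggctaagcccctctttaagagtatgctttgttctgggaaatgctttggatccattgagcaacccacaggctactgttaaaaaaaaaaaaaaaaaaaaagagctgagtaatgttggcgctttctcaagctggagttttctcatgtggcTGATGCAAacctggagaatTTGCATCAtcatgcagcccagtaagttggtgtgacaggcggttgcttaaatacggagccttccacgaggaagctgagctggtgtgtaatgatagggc
Slc1a4: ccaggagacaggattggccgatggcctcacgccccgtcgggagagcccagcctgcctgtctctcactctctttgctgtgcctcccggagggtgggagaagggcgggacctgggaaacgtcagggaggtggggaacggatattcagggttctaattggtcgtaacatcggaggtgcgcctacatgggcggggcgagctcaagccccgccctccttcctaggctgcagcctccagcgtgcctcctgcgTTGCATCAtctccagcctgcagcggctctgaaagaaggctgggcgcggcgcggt
Slc7a7: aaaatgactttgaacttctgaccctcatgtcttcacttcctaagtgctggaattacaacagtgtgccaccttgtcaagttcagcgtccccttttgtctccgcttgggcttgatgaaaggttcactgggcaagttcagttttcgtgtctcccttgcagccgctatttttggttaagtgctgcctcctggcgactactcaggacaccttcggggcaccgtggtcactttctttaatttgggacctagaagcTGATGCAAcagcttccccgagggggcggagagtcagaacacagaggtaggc
Slc50a1: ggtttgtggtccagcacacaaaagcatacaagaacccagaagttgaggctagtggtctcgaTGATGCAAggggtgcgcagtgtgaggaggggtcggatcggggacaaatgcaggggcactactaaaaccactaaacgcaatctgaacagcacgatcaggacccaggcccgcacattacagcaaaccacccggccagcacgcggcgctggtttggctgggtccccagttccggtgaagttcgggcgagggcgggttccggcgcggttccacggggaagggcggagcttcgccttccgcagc
In Slc7a11 the pair of copies stands on opposite strands, and in Slc1a4 and Slc7a7 the copy lies across the start of transcription.

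Other motifs were more frequent in all promoters. The antioxidant response element TGACNNNGC stood in 20.6% of carrier promoters and 12.4% of all, the E-box CACGTG in 13.8% and 7.15%, and the core ACGTG of the hypoxia response element, which every CACGTG also holds, in 28.9% and 19.6%. E-boxes stood in 15 of 84 promoters (17.9%) of carriers higher with Tubastatin A than with vehicle, in 8 of 62 (12.9%) of those lower and in 7 of 72 (9.72%) of the others. These are counts of letters and show no binding. For every motif searched, the share of all promoters was not limited to genes of the table. A difference from carriers can therefore also be one between genes in the table and other genes, which was not tested.

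Lactate and other organic ions leave or enter by families 10, 16 and 22 among others. Of the 18 members of this class 3 rose and 10 fell in vehicle culture (6 and 9 with reads in the table), with a median log2 change of -0.68. For all genes the shares were 32% and 35% (49.7% and 22.7% with reads in the table). With Tubastatin A 8 members rose and 4 fell against vehicle, where 29.6% and 29.7% of all genes did. The monocarboxylate carrier gene Slc16a1, which encodes MCT1, was at 39.1, 54.7 and 62.2 RPKM in fresh, 55.4, 64.7 and 63.2 in vehicle and 38.8, 36, 31.5 and 38.3 in treated libraries. On the authors' scaling all treated libraries were below all vehicle and fresh ones, and it fell by 0.74 (SE 0.15, adjusted p = 0.0012) against vehicle. Its glycolytic relative Slc16a3, which encodes the lactate exporter MCT4, went from 19.3, 19.8 and 33.1 RPKM in fresh to 1.78, 2.41 and 1.85 in vehicle and 2.72, 4.22, 3.24 and 3.59 in treated libraries. The rise of 0.56 in Slc16a3 with the compound (SE 0.19, adjusted p = 0.024) was lost without any 1 of 4 cultured libraries (vehicle replicates 1 and 3, Tubastatin A replicates 2 and 4, with adjusted p = 0.053 to 0.080). A pseudocount of 5 RPKM in place of 1 removed the call as well (0.27, adjusted p = 0.13). The ratio of Slc16a1 to Slc16a3 was thus 1.88 to 2.77 in fresh, 26.8 to 34.2 in vehicle and 8.54 to 14.2 in treated libraries, with no overlap. Bsg, the chaperone that brings both carriers to the plasma membrane, measured 184 to 295 RPKM in fresh, 223 to 252 in vehicle and 238 to 286 in treated libraries and did not pass in any comparison.

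Slc10a6 (chr5:103605711-103629403, minus strand) encodes SOAT, a sodium-coupled carrier of steroid sulfates. It had 586, 451 and 484 RPKM in fresh libraries, the second highest mean of all carriers there, and 0.844, 0.736 and 0.609 RPKM in vehicle and 1.82, 1.13, 1.54 and 1.53 RPKM in treated ones. In recovered reads these were 48970, 28304 and 31946, 86, 67 and 58 and 241, 138, 148 and 161. The fall of 8.19 on the log2 scale in vehicle culture was the largest of all carriers (SE 0.14, adjusted p = 1e-11). With Tubastatin A the level remained near that of vehicle: it rose by 0.53 (SE 0.13, adjusted p = 0.0039) between the cultured groups, a call that a pseudocount of 5 RPKM in place of 1 removed (0.18, adjusted p = 0.12).

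Slc22a4 (chr11:53983123-54028090, minus strand), the carrier of the antioxidant ergothioneine, had 3.23, 4.23 and 6.63 RPKM in fresh, 0.686, 0.786 and 1.04 in vehicle and 18.3, 18.1, 15.7 and 19.3 in treated libraries. The treated libraries stood above all others, and the log2 change against vehicle, 3.36 (SE 0.18, adjusted p = 3.1e-08), was the largest rise of any carrier in that comparison. Its neighbour in family, the carnitine carrier gene Slc22a5, stood at 19.1, 17.9 and 22 RPKM in fresh, 5.33, 4.21 and 4.89 in vehicle and 8.83, 7.82, 7.21 and 8.37 in treated libraries. It fell by 1.83 (SE 0.13, adjusted p = 1.3e-07) in vehicle culture and rose by 0.64 (SE 0.12, adjusted p = 0.00057) with the compound, so treated cells lay between vehicle and fresh ones. Slc22a17, a receptor of the siderophore-binding protein lipocalin 2, fell by 3.20 in vehicle culture and rose by 0.70 with the compound, at means of 21.4 RPKM in fresh, 1.44 in vehicle and 2.96 in treated cells. Slc22a23, an orphan of the family, was lowest in fresh cells (1.12 to 1.23 RPKM) and highest in vehicle (5.78 to 8.80), and fell by 0.57 (SE 0.15, adjusted p = 0.0072) with Tubastatin A.

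Metal and haem carriers numbered 28, and 18 of them rose and 4 fell with Tubastatin A against vehicle at a median of 0.52, where 29.6% and 29.7% of all genes did. In vehicle culture 4 rose and 10 fell (9 and 5 with reads in the table), beside 32% and 35% of all genes (49.7% and 22.7%). Iron enters by the transferrin receptor and the divalent metal carrier, is freed from haem or carried with it, and leaves by ferroportin. Slc48a1 (chr15:97778520-97792692, plus strand), which moves haem out of lysosomes, was at 10.0, 9.55 and 8.74 RPKM in fresh, 123, 135 and 139 in vehicle and 96.6, 93.4, 103 and 103 in treated libraries. Both cultured groups were far above fresh cells, and the fall with the compound was small (log2 change -0.41, SE 0.10, adjusted p = 0.0036) although no treated library reached a vehicle one. The only known exporter of iron, ferroportin, is encoded by Slc40a1, which measured 4.76, 5.41 and 7.52 RPKM in fresh, 0.686, 0.897 and 0.704 in vehicle and 3.60, 3.26, 3.10 and 4.21 in treated libraries. It fell by 1.95 (SE 0.16, adjusted p = 4.7e-07) in vehicle culture and rose by 1.36 (SE 0.15, adjusted p = 9.3e-06) with Tubastatin A, 4.65 times the vehicle mean. Against fresh cells the change of -0.59 in Slc40a1 passed (adjusted p = 0.0039), but was -0.03 with reads in the table.

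The transferrin receptor gene Tfrc, from the list of partners, had the opposite order: 4.97, 4.45 and 4.58 RPKM in fresh, 40.1, 37.1 and 36 in vehicle and 25.5, 27.2, 21.5 and 21.6 in treated libraries. It rose by 2.77 (SE 0.12, adjusted p = 2.6e-09) and then fell by 0.64 (SE 0.11, adjusted p = 0.00035). Slc11a2, the proton-coupled iron carrier DMT1, rose by 0.70 (SE 0.16, adjusted p = 0.0029) with the compound, from 12.2, 11.8 and 12.7 RPKM in vehicle to 23.2, 20.7, 17.3 and 20.9 in treated libraries. Flvcr2, a plasma membrane carrier outside the numbered symbols, was at 9.21, 3.95 and 4.83 RPKM in fresh, 0.0833, 0.0466 and 0.108 in vehicle and 3.76, 3.30, 2.31 and 3.00 in treated libraries. Flvcr2 rose by 1.91 (SE 0.21, adjusted p = 1.3e-05) against vehicle. The mitochondrial iron importer genes Slc25a37 and Slc25a28 differed in their order by group, with a ratio of Slc25a37 to Slc25a28 of 0.249 to 0.278 in fresh, 0.583 to 0.854 in vehicle and 0.939 to 1.38 in treated libraries.

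Zinc carriers work in opposite directions: Slc30 proteins take zinc out of the cytosol and Slc39 proteins bring it in. With Tubastatin A, 5 of 7 Slc30 genes rose and none fell, and 5 of 11 Slc39 genes rose and 3 fell. Of all genes 29.6% rose and 29.7% fell in that comparison. Slc30a1, the plasma membrane exporter, stood at 3.29, 3.35 and 3.25 RPKM in fresh, 1.75, 2.29 and 2.07 in vehicle and 6.30, 5.32, 4.41 and 5.53 in treated libraries, with no overlap between groups. It rose by 1.07 (SE 0.12, adjusted p = 1.6e-05) with the compound, while its fall of 0.50 in vehicle culture was -0.06 with reads in the table. Slc30a3, the carrier that loads zinc into synaptic vesicles, was held by at most 2 reads in any fresh library and at most 4 in any vehicle one (1, 2 and 0, and 2, 0 and 4), and by 369, 253, 326 and 385 reads with Tubastatin A. Those reads correspond to 2.09, 1.55, 2.54 and 2.74 RPKM, so the gene was detected above a few reads in treated libraries only. Slc30a4, an endosomal zinc carrier named after its values were seen, rose by 0.90 (SE 0.17, adjusted p = 0.00058).

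Of the importers, Slc39a14, which carries zinc and iron, dropped from 123, 82 and 151 RPKM in fresh to 10.9, 9.11 and 8.75 in vehicle libraries and stood at 11.9, 10.7, 10.1 and 8.76 with the compound. It fell by 3.46 (SE 0.19, adjusted p = 2.5e-08) and then did not pass the test (log2 change 0.10, SE 0.18, adjusted p = 0.66). The 3 Slc39 genes that fell with Tubastatin A were Slc39a13, an ER and Golgi zinc carrier, Slc39a11 and Slc39a10. Slc39a13 was at 15, 10.7 and 8.19 RPKM in fresh, 23.2, 23.5 and 24.9 in vehicle and 10.9, 8.34, 8.61 and 10.7 in treated libraries. Slc39a11 was at 9.40, 9.36 and 9.59 RPKM in fresh, 16.8, 15.4 and 17.8 in vehicle and 8.01, 7.48, 6.65 and 7.55 in treated libraries. In both genes the vehicle libraries were above all others, and the compound brought changes of -1.23 and -1.07. The ratio of the exporter Slc30a1 to the importer Slc39a10 was 0.380 to 0.692 in fresh, 0.107 to 0.179 in vehicle and 0.555 to 0.758 in treated libraries. Metallothioneins Mt1 and Mt2, cytosolic zinc buffers, fell in vehicle culture from means of 1271 and 209 RPKM to 90.4 and 11.4, and neither passed between the cultured groups (adjusted p = 0.72 and 0.37).

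The metal response element, searched as TGCACNC or TGCGCNC, stood in 35.8% of carrier promoters and 25.7% of all. It is best known from the metallothionein genes, and the factor that binds it, MTF-1, is also known to act on Slc30a1. The promoter of Slc30a1 is printed here with both matches in capitals as they read on the plus strand, the gene's own (chr1:191906531-191906830); their first bases are at -43 and 31.
Slc30a1: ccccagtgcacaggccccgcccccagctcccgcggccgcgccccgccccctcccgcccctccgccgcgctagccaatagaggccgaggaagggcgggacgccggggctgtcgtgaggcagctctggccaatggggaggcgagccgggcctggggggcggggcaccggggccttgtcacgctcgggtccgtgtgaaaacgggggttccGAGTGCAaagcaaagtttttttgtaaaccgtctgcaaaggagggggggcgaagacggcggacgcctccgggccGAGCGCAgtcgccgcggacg
Both matches are the reverse complement of the motif on this strand.

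Slc41a1, an exchanger that exports magnesium for sodium, went from 160.4, 127 and 224 RPKM in fresh to 14.8, 14.1 and 15.8 in vehicle and 44.6, 42.3, 42.1 and 40.9 in treated libraries. Each group was apart from the others, with log2 changes of -3.40 (SE 0.17, adjusted p = 8.7e-09) in vehicle culture and 1.45 (SE 0.16, adjusted p = 1e-05) with the compound. All 3 Slc41 genes rose with the compound. Slc49a4, a lysosomal membrane carrier, followed the same order at 36.2, 46 and 42.2 RPKM in fresh, 5.49, 6.02 and 5.17 in vehicle and 31.1, 29.3, 22.2 and 28.8 in treated libraries. Slc49a4 rose by 2.13 (SE 0.13, adjusted p = 9.6e-08) against vehicle, 5.01 times the vehicle mean. Slc31a1, the copper importer, was named after its values were seen: it stood at 50.4 to 72.1 RPKM in fresh, 20.9 to 24.2 in vehicle and 19.3 to 25.7 in treated libraries, and did not pass the test (log2 change 0.08, SE 0.15, adjusted p = 0.66) between the cultured groups.

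**Figure D4:**
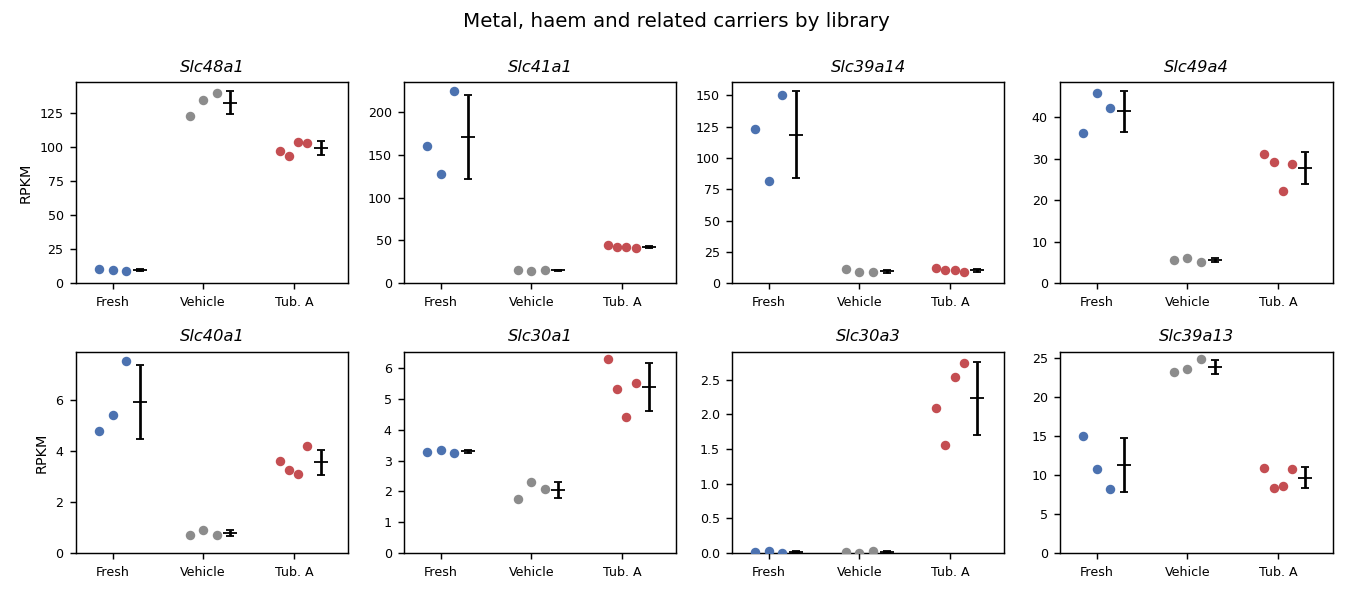
RPKM of 8 metal and haem carriers, 1 point per library, with the mean and SD (bars) of 3 fresh, 3 vehicle and 4 Tubastatin A libraries on linear axes from 0. Slc41a1, Slc49a4, Slc40a1 and Slc30a1 are lowest in vehicle, Slc39a13 is highest there, Slc48a1 is low only in fresh cells, Slc39a14 is high only in fresh cells, and Slc30a3 is at 1.55 to 2.74 RPKM with Tubastatin A and at most 0.0315 in the other 6 libraries.

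Mitochondrial carriers, the Slc25 family, link the matrix to the cytosol. Of its 39 measured members 14 rose and 13 fell in vehicle culture (23 and 6 with reads in the table). The shares of all genes were 32% and 35% (49.7% and 22.7% with reads in the table), so all genes shifted likewise with the scaling. With Tubastatin A 12 rose and 15 fell against vehicle, where 29.6% and 29.7% of all genes did. These counts turned to 15 and 14 with reads in the table, where the shares of all genes were 33.8% and 27.9%. On the authors' scaling the sum of the family was 1396 ± 364.3 RPKM in fresh, 1659 ± 37.1 in vehicle and 923.3 ± 56.4 in treated cells. The order of fresh and cultured sums depends on that scaling.

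The adenine nucleotide carriers, which exchange ATP for ADP, were the highest. Slc25a5 (chrX:36795651-36798807, plus strand), the isoform of growing cells, stood at 494, 1081 and 731 RPKM in fresh, 935, 944 and 875 in vehicle and 367, 338, 279.8 and 374 in treated libraries. On the authors' scaling treated libraries were below all others, and Slc25a5 fell by 1.44 (SE 0.24, adjusted p = 0.00028) against vehicle. Its change against fresh cells did not pass with equal sums of RPKM (-0.39, adjusted p = 0.11). Fresh and vehicle libraries overlapped, with a log2 change of 0.33 (adjusted p = 0.28), which passed with reads in the table (0.94, adjusted p = 0.0043) or without fresh replicate 2 (0.61, adjusted p = 0.017). Slc25a4, the isoform of heart and muscle fibres, was at 155, 212 and 148 RPKM in fresh, 176, 193 and 198 in vehicle and 131, 137, 125 and 146 in treated libraries. Slc25a4 fell by 0.48 (SE 0.14, adjusted p = 0.012) with the compound. The ratio of Slc25a5 to Slc25a4 was 3.19 to 5.10 in fresh, 4.43 to 5.33 in vehicle and 2.24 to 2.81 in treated libraries, so treated cells had the lowest ratio with no overlap. Slc25a3, which imports phosphate for ATP synthesis, fell by 0.54 with Tubastatin A and was at 56.5 to 91.1 RPKM in fresh, 42.1 to 49.2 in vehicle and 28.1 to 33.4 in treated libraries.

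Slc25a1, Slc25a10 and Slc25a24 were highest in vehicle cells. Slc25a1, which exports citrate for lipid synthesis, stood at 21.4, 20.4 and 13.7 RPKM in fresh, 46.7, 53.8 and 59 in vehicle and 31.4, 33.1, 34 and 34.4 in treated libraries. The dicarboxylate carrier gene Slc25a10 had 3.75, 3.87 and 3.11 RPKM in fresh, 20.1, 22.7 and 22 in vehicle and 7.38, 7.60, 6.35 and 8.32 in treated libraries. The ATP-Mg and phosphate carrier gene Slc25a24 had 7.23, 2.59 and 4.17 RPKM in fresh, 26.8, 28.1 and 23.6 in vehicle and 10.1, 13, 11 and 11.6 in treated libraries. In these 3 genes no group overlapped with another, and the changes with Tubastatin A were -0.66 (adjusted p = 0.0022), -1.43 (adjusted p = 9.8e-07) and -1.13 (adjusted p = 0.00088). Slc25a32, a mitochondrial folate carrier, and Slc25a15, the ornithine carrier, fell by 0.50 and 1.28 with the compound after rises of 1.0 and 0.92 in vehicle culture. Slc25a39, which brings glutathione into mitochondria, rose by 0.68 in vehicle culture and fell by 0.45 with the compound (adjusted p = 0.027), a call lost without either vehicle replicate 2 (adjusted p = 0.071) or vehicle replicate 3 (adjusted p = 0.098) and without any of Tubastatin A replicates 1, 2 and 3 (adjusted p = 0.053 to 0.062). Scaled to reads in the table, the change of Slc25a39 did not pass either (-0.37, adjusted p = 0.052).

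Slc25a13 encodes citrin, an aspartate and glutamate carrier of the malate-aspartate shuttle. It had 1 read in each fresh library, against 350, 356 and 263 reads in vehicle and 279, 217, 223 and 167 in treated libraries, where it was at 1.18, 0.994, 1.30 and 0.887 RPKM. Its paralog Slc25a12, named for comparison after its values were seen, was at 4.78 to 5.59 RPKM in fresh, 4.49 to 5.32 in vehicle and 4.88 to 5.71 in treated libraries, and no comparison passed. Fresh cells thus had transcripts of 1 isoform almost alone. Among members that rose with Tubastatin A, the pyrimidine nucleotide carrier genes Slc25a33, named after its values were seen, and Slc25a36 stood at 9.99 RPKM in fresh, 9.52 in vehicle and 22.5 in treated cells and at 7.34 RPKM in fresh, 3.52 in vehicle and 6.92 in treated cells, with log2 changes of 1.17 and 0.81 against vehicle. Slc25a25, a calcium-regulated ATP-Mg carrier, was highest in fresh cells (51.7, 24.2 and 24.9 RPKM) and stood at 9.75 to 11 in vehicle and 7.13 to 7.77 in treated libraries. Slc25a20, the carnitine and acylcarnitine carrier of fatty acid oxidation, overlapped between the groups at 7.0 to 11.5 RPKM in fresh, 9.61 to 11 in vehicle and 10.0 to 11.9 in treated libraries.

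**Figure D5:**
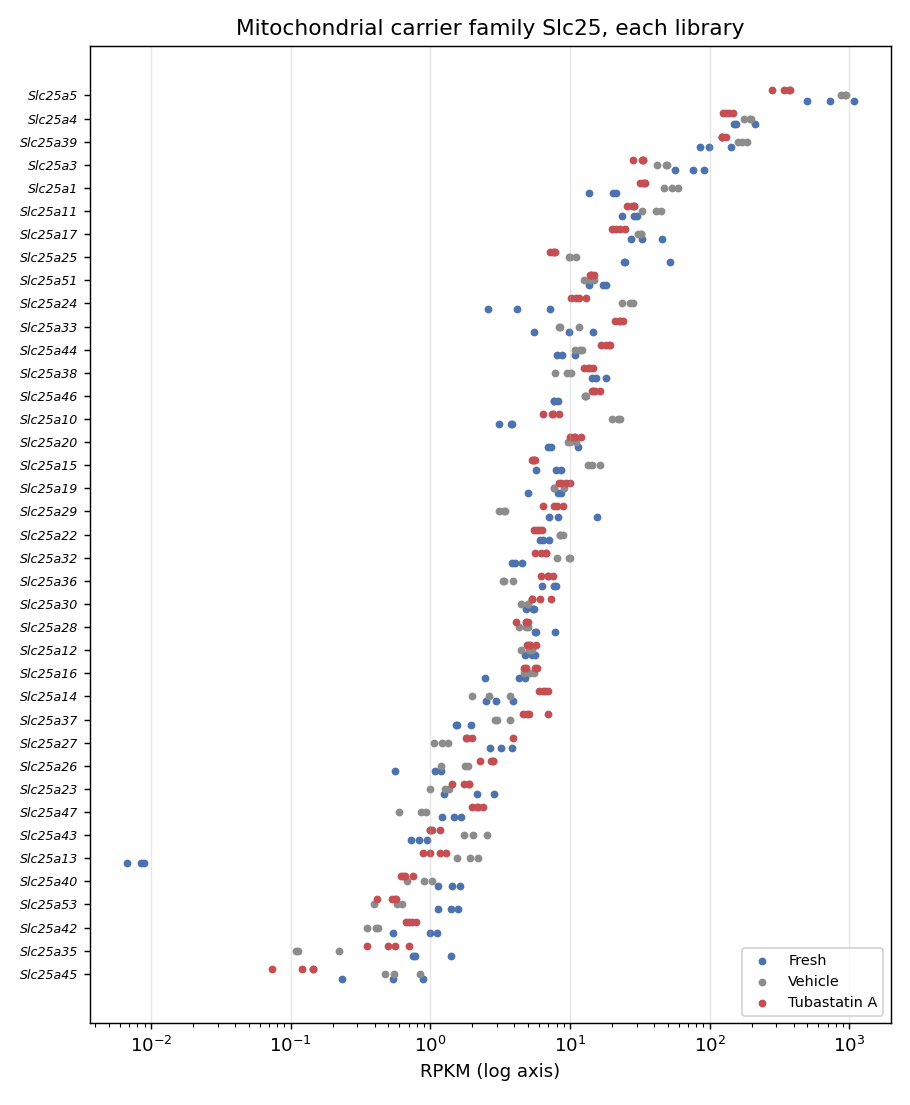
RPKM of the 39 measured Slc25 genes on a log axis, 1 point per library, ordered by mean level. Slc25a5, Slc25a4 and Slc25a39 lead in all 3 groups, vehicle points lie above the others in Slc25a10, Slc25a24 and Slc25a1, and the fresh points of Slc25a13 stand apart at the level of 1 read.

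A list of 31 carriers and partners under other symbols had 28 measured genes. On the authors' scaling 9 of them rose and 11 fell in vehicle culture, where 32% of all genes rose and 35% fell. With Tubastatin A 11 rose and 7 fell against vehicle, where 29.6% and 29.7% of all genes did. The pyruvate carrier subunit genes Mpc1 and Mpc2 did not pass between the cultured groups (adjusted p = 0.5 and 0.19). Sfxn1, the mitochondrial serine carrier, was at 4.84, 6.21 and 4.16 RPKM in fresh, 23.7, 24.1 and 22.9 in vehicle and 12.5, 11, 10.3 and 10.1 in treated libraries. Sfxn1 fell by 1.04 (SE 0.13, adjusted p = 2.4e-05) with the compound. Ucp2, an uncoupling protein, fell by 1.65 (SE 0.21, adjusted p = 3.5e-05), and Mcu, the pore of the calcium uniporter, fell by 1.07 (SE 0.13, adjusted p = 3e-05). Slc8b1, the exchanger that lets calcium out of mitochondria for sodium, was at 19.1, 17 and 22.1 RPKM in fresh, 5.90, 4.65 and 4.47 in vehicle and 19.8, 17.9, 16.7 and 21.9 in treated libraries. Treated and fresh libraries of Slc8b1 overlapped, and vehicle was apart, with log2 changes of -1.76 (SE 0.14, adjusted p = 5e-07) in vehicle culture and 1.74 (SE 0.13, adjusted p = 6.1e-07) with the compound. Txnip and Arrdc4, arrestins that take glucose transporters off the plasma membrane, were lowest in vehicle at 7.87 to 11.3 and 1.95 to 2.28 RPKM and measured 17 to 27.6 and 4.41 to 6.55 RPKM in treated libraries. They stood at 52 to 171 and 5.69 to 8.69 RPKM in fresh ones, and rose by 1.14 and 1.05 with the compound.

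Of the 31 carriers of inorganic ions, 6 rose and 12 fell in vehicle culture (10 and 4 with reads in the table), beside 32% and 35% of all genes (49.7% and 22.7%). Without fresh replicate 1 or vehicle replicate 3 the number of these carriers that fell in vehicle culture was 7. With Tubastatin A 10 rose and 5 fell against vehicle, where 29.6% and 29.7% of all genes did. The phosphate importer gene Slc20a2 was at 4.48, 4.94 and 8.08 RPKM in fresh, 34.4, 29.8 and 28.4 in vehicle and 16.5, 15.6, 13.9 and 15.1 in treated libraries, with each group apart, and it rose by 2.25 (SE 0.17, adjusted p = 3e-07) and then fell by 0.97 (SE 0.16, adjusted p = 0.00028). Slc20a1, the second phosphate importer, fell by 0.66 with the compound. Slc26a11, a sulfate carrier of lysosomes, had its lowest level in vehicle: 4.66, 4.98 and 6.01 RPKM in fresh, 1.46, 1.96 and 1.62 in vehicle and 6.35, 6.12, 5.03 and 6.28 in treated libraries, with a rise of 1.37 under the compound. The following did not pass between the cultured groups: the sodium, potassium and chloride carrier gene Slc12a2 (adjusted p = 0.22) and the bicarbonate carrier gene Slc4a7 (adjusted p = 0.21). Slc4a11, a membrane carrier of protons and water, was near 0 in fresh and vehicle libraries (0.176 to 0.200 and 0.0982 to 0.196 RPKM) and reached 2.05, 1.44, 1.04 and 1.41 RPKM with Tubastatin A.

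The class of nucleosides, vitamins, lipids and choline was the 1 class in which more genes rose than fell in vehicle culture under both scalings beside the mitochondrial family: 9 and 5, or 11 and 4 with reads in the table. Among all genes 32% rose and 35% fell, or 49.7% and 22.7% with reads in the table. With the compound 4 of the 17 genes of the class rose and 6 fell, where 29.6% and 29.7% of all genes did. Slc29a1 and Slc29a2, equilibrative nucleoside carriers, were highest in vehicle. Slc29a1 stood at 38.1, 47.1 and 36.9 RPKM in fresh, 60.1, 66.6 and 59.2 in vehicle and 25.7, 27, 20.3 and 24 in treated libraries. Slc29a1 fell by 1.32 (SE 0.13, adjusted p = 3.3e-06) with the compound. Slc29a2 was at 2.53 RPKM in fresh, 7.19 in vehicle and 2.74 in treated cells. Slc28a2, the sodium-coupled carrier of purine nucleosides, had 79, 118 and 168 reads in fresh, none in any vehicle library and 4, 4, 0 and 12 reads in treated ones. The reduced folate carrier gene Slc19a1 rose by 1.08 in vehicle culture and fell by 0.42 with the compound.

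Fatty acid and choline carriers gave the largest opposed changes of that class. Slc27a1, which takes up long-chain fatty acids, fell from 33.4, 28 and 25.9 RPKM in fresh to 2.76, 2.93 and 2.98 in vehicle libraries and stood at 13, 14.4, 16 and 16.4 in treated ones, so no groups overlapped on the authors' scaling. Treated against fresh did not pass with equal sums of RPKM (-0.22, adjusted p = 0.12). Slc27a1 rose by 2.03 (SE 0.12, adjusted p = 6.3e-08) against vehicle. Slc27a3, an acyl-CoA synthetase of the same family, was at 2.3, 1.66 and 2.29 RPKM in fresh, 6.65, 7.47 and 5.85 in vehicle and 0.948, 0.772, 0.739 and 0.644 in treated libraries. Slc27a3 fell by 2.11 (SE 0.12, adjusted p = 6.2e-08), to below the fresh libraries. Slc44a2, a choline carrier, had 19.8, 11.1 and 13.5 RPKM in fresh, 44.3, 46.4 and 37.4 in vehicle and 9.67, 11.8, 7.14 and 9.64 in treated libraries and fell by 2.06 (SE 0.19, adjusted p = 2.8e-06). The ascorbate carrier gene Slc23a2, named after its values were seen, stood at 8.11 to 12.4 RPKM in fresh and 9.07 to 10.4 in treated libraries, with vehicle at 3.72 to 4.38 below both, and rose by 1.10 (SE 0.14, adjusted p = 2.7e-05). Slc46a3, a lysosomal carrier, rose by 1.24 (SE 0.12, adjusted p = 4.8e-06) as well.

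Nucleotide sugar carriers of the Slc35 family feed glycosylation in the ER and Golgi. Of 23 members, 8 rose and 9 fell in vehicle culture (11 and 4 with reads in the table), beside 32% and 35% of all genes (49.7% and 22.7%). With Tubastatin A 8 rose and 5 fell against vehicle, where 29.6% and 29.7% of all genes did. Of those 5, 3 fell without vehicle replicate 1 or without Tubastatin A replicate 2 or 3. Slc35a4 was the highest member in vehicle, at 96.5 to 105 RPKM against 40.6, 50.2 and 48.1 in fresh and 84.4, 84.4, 72.9 and 93.2 in treated libraries, and between the cultured groups it did not pass the test (log2 change -0.27, SE 0.12, adjusted p = 0.066). The UDP-galactose carrier gene Slc35a2 rose by 1.39 (SE 0.12, adjusted p = 1.8e-06), and Slc35b1, which exchanges ATP and ADP across the ER membrane, did not pass the test (log2 change 0.26, SE 0.15, adjusted p = 0.17). Members without a settled cargo gave opposed changes with the compound. Slc35g2 stood at 1.36, 3.68 and 3.48 RPKM in fresh, 1.05, 1.56 and 0.800 in vehicle and 16.6, 14.4, 11.2 and 16.3 in treated libraries. Slc35g2 rose by 2.87 (SE 0.24, adjusted p = 1.1e-06). Slc35f5 rose by 1.10. Slc35g1 stood at 1.52, 1.15 and 1.56 RPKM in fresh, 12.7, 12.8 and 10.9 in vehicle and 4.51, 4.87, 3.73 and 4.35 in treated libraries. Slc35g1 fell by 1.29 (SE 0.12, adjusted p = 3.1e-06).

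Slc17a7, the vesicular glutamate carrier VGLUT1, was at 0.123, 0.00966 and 0.0239 RPKM in fresh, 0.0193, 0.0736 and 0.0290 in vehicle and 2.28, 1.90, 1.90 and 1.29 in treated libraries. Slc35d3 had 0, 15 and 14 reads in fresh, 3, 0 and 4 in vehicle and 223, 258, 191 and 150 in treated libraries, or 1.36, 1.71, 1.60 and 1.15 RPKM in the last. Slc10a4, a relative of the bile acid carriers found on synaptic vesicles, had no read in any of the 6 fresh and vehicle libraries and 131, 75, 34 and 58 reads with the compound, which correspond to 0.997, 0.619, 0.357 and 0.555 RPKM. In these genes every treated library was above all others, and levels stayed below 3 RPKM. The gene filter of the deposited table is not known. These genes, like Slc30a3, Slc45a3 and Slc4a11, may be in the table only through the treated libraries, so their separation is a description.

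Carriers placed on lysosomal or endosomal membranes cut across the classes, and the following 19 were grouped after their values had been seen, so that their count is a description. They are Slc2a6, Slc2a8, Slc11a1, Slc11a2, Slc12a9, Slc15a4, Slc17a5, Slc26a11, Slc29a3, Slc30a4, Slc31a2, Slc36a1, Slc36a4, Slc37a3, Slc38a7, Slc38a9, Slc46a3, Slc48a1 and Slc49a4. With Tubastatin A 17 of them were higher than with vehicle, Slc48a1 was lower and Slc29a3, a nucleoside carrier, did not pass, at a median log2 change of 0.84, and the counts were 17 and 1 with reads in the table as well. Of all genes 29.6% were higher and 29.7% lower than with vehicle. In vehicle culture 3 of the 19 rose and 8 fell (5 and 4 with reads in the table), beside 32% and 35% of all genes (49.7% and 22.7%). Summed, they stood at 134.8 ± 6.51 RPKM (SD, n = 3) in fresh, 196.9 ± 8.52 (n = 3) in vehicle and 259.2 ± 11.3 (n = 4) in treated cells, where the vehicle sum holds the high level of Slc48a1. Slc17a5, which lets sialic acid out of lysosomes, stood at 5.10, 4.71 and 5.90 RPKM in fresh, 3.42, 3.47 and 2.81 in vehicle and 6.40, 6.23, 5.49 and 7.02 in treated libraries. Slc17a5 rose by 0.78 (SE 0.12, adjusted p = 0.00017). Slc38a7, which carries glutamine out of lysosomes, stood at 4.15, 1.23 and 1.84 RPKM in fresh, 5.01, 4.24 and 3.91 in vehicle and 11.5, 9.82, 9.67 and 9.66 in treated libraries. Slc38a7 rose by 1.05 (SE 0.23, adjusted p = 0.0018). In both genes all treated libraries were above all vehicle ones. Slc38a9, the lysosomal carrier through which arginine is sensed, had means of 0.559 RPKM in fresh, 0.456 in vehicle and 1.76 in treated cells and rose by 0.92 (SE 0.10, adjusted p = 8.8e-06).

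The 5 genes that are not carriers split as 1 higher and 3 lower in vehicle culture, and 1 fell and 4 did not pass with Tubastatin A. The one that fell, Slc9a3r1, encodes the scaffold NHERF1 and was among the 10 highest symbols in each group, at 141, 182 and 147 RPKM in fresh, 82.7, 91.1 and 91.5 in vehicle and 46.4, 47.7, 52.8 and 57.7 in treated libraries. Without the 5 genes, 55 carriers rose and 82 fell in vehicle culture.

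Set against fresh cells, treated cells differed in 149 of 214 carriers, or 69.6%, near the 64.9% of all genes that differed. Libraries of both groups did not overlap in 145 carriers (67.8%), where 61.3% of all genes did not. For vehicle against fresh this count was 140 (65.4%, where it was 67.6% of all genes), and for Tubastatin A against vehicle 160 (74.8%, where it was 68.6%). Beside Slc10a6, the lowest values of treated against fresh cells were those of Slc43a3 (-4.99), Slc43a1 (-3.46), Slc39a14 (-3.36) and Slc7a8 (-3.34), in all of which vehicle was below fresh as well. The highest were those of Slc48a1 (3.26), Slc45a3 (2.24), Slc7a11 (2.14) and Slc35g2 (2.07). Genes lowest in vehicle differed in their treated level, and how many came back to the fresh level was not counted. Slc7a8 (-3.34), Slc2a12 (-2.17), Slc41a1 (-1.94) and Slc2a10 remained below fresh cells. In others, picked as examples, treated means came near or above fresh ones. Those of Slc2a1, Slc1a4, Slc8b1, Slc26a11 and Slc23a2 were 1.36, 1.14, 0.982, 1.14 and 0.983 times their fresh means. Of these, only the 0.48 of Slc2a1 passed (adjusted p = 0.045), and with reads in the table Slc1a4 (0.78), Slc26a11 (0.73) and Slc8b1 (0.63) were above fresh cells as well.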

How the data were processed

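RNA of sorted muscle stem cells was sequenced as paired reads after SMART-Seq v4 amplification of polyadenylated RNA, per the labels' protocols. The authors deposited 1 table of RPKM for 12803 genes in 10 libraries, 1 per animal. The submitters' processing notes name Trim Galore, STAR, featureCounts, Subread, edgeR and the mm10 build. Versions, gene filter and use of strand are not given in the sources used here, so reads of paralogs, overlapping genes and antisense partners may be shared between genes. The unit was inferred from the values: multiplied by union exon lengths of GENCODE M21, the deposited RPKM of 12211 genes (95.4%) were whole multiples of 1 step per library, within 0.05 reads, and 210 of 214 carriers had recovered reads. Genes without reads stand at a small value per gene (37 values of 11 carriers).

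All tests were limma 3.58.1 (R 4.3.3) with a variance trend on log2(RPKM + 1), 1 model for 3 groups, and p-values were adjusted by Benjamini-Hochberg over all 12803 genes. A gene was called at an adjusted p under 0.05, and rose or fell refers to such calls. Fold changes on this scale understate those of low genes. The p-values measure spread between animals. The procedure was tested on simulated data.

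Members, classes, partners and markers were chosen with earlier results of these data known. Named were a list of 44 carriers, the 4 of lowest p among those called per class and comparison, the highest per class and group, and the 10 highest and 10 lowest changes per comparison among called genes without overlap, 103 in all, and others are marked where named. Alternatives were other pseudocounts, a filter, 3 scalings, 2-group fits, a replicate block, array weights, voom on recovered reads, a fold threshold and leaving out each library. Promoter sequences are those of RefSeq (GRCm38.p6). Gene positions are from GENCODE M21 on the same build. A few genes of these lists are not reported here.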

Additional observations from a re-analysis of the deposited data

Results flagged for a closer look

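In each of 4 of the 103 named carriers, 1 treated library stood apart from the other 3 by more than Dixon's 95% critical gap for groups of 4. Chance flags about 1 in 20 groups. Slc10a3 measured 8.35 RPKM in Tubastatin A replicate 3 and 10.1 to 10.2 in the others (gap over range 0.957). Slc25a3, the mitochondrial phosphate carrier, was at 28.1 RPKM in replicate 1 and 32.6 to 33.4 in the others (0.843). Slc25a39, the mitochondrial glutathione carrier, was at 130.9 RPKM in replicate 4 and 122.0 to 123.4 in the others (0.841). Slc38a7, the lysosomal glutamine carrier, was at 11.5 RPKM in replicate 1 and 9.66 to 9.82 in the others (0.911).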

How the results depend on the processing

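With equal sums of RPKM, 89 carriers were higher and 50 lower in vehicle than in fresh cells and 133 and 34 with Tubastatin A than in fresh cells, and these counts were 88 and 51, and 132 and 35, when scaled to reads in the table. With Tubastatin A against vehicle the counts were 109 and 43, and 105 and 43, so they stayed within 1.5 times of 91 and 48. A change of at least 1 log2 unit was met by 23 higher and 39 lower, 41 and 12, and 31 and 27 carriers when vehicle was set against fresh, Tubastatin A against vehicle, and lastly Tubastatin A against fresh cells. Leaving out each library in turn gave 51 to 61 higher and 75 to 90 lower, 83 to 103 and 43 to 52, and 79 to 87 and 62 to 71.

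Signs of named carriers that passed the test in either fit turned under these scalings alone, given first for equal sums and then for reads in the table. In vehicle against fresh these were Slc11a2 (0.50 and 0.51), Slc25a28 (0.15 and 0.15), Slc44a1 (0.19 and 0.20) and Slc6a8 (0.37 and 0.37). In Tubastatin A against fresh these were Slc16a1 (0.21 and 0.18), Slc20a1 (0.40 and 0.37), Slc25a15 (0.26 and 0.23), Slc25a28 (0.25 and 0.22), Slc25a36 (0.56 and 0.53), Slc25a4 (0.39 and 0.35), Slc35b1 (0.18 and 0.15), Slc39a11 (0.33 and 0.30), Slc39a13 (0.47 and 0.44), Slc44a1 (0.42 and 0.38), Slc44a2 (0.10 and 0.070), Slc49a4 (0.14 and 0.11), Slc8b1 (0.66 and 0.63) and, with equal sums, Slc40a1 (0.00080). Slc7a1 (-0.10, adjusted p = 0.71) was at 0.48 (adjusted p = 0.04997) with equal sums and at 0.45 (adjusted p = 0.068) with reads in the table.

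With the replicate number as a block, 56 were higher and 84 lower, 86 and 43, and 79 and 61 in the 3 comparisons, 304 values of named genes kept their call and 5 lost it (Slc35c2, Slc37a4 and Slc6a6 for Tubastatin A against vehicle, Slc25a28 and Slc2a1 for Tubastatin A against fresh), and 2 instead of 5 nucleotide sugar carriers were lower with Tubastatin A than with vehicle. Deviations of libraries that share a number correlated at -0.19 to 0.39, not every pair was above 0.1 and not every library correlated best with its own number. Libraries numbered 1 correlated at 0.24 to 0.39, and fresh and vehicle replicate 3 at -0.19. With so few libraries the check does not show that the number pairs samples and cannot exclude it. Depth limits genes held by a few reads, such as Slc30a3 and Slc25a13 in fresh cells.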
